A study of Mus musculus with 12 samples.

Results

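Transforming growth factor-β (TGF-β) is made as a precursor that leaves the cell in a latent complex, in which latent TGF-β-binding proteins (LTBPs) hold the cytokine to the extracellular matrix until integrins, proteases or thrombospondins release it. Free ligand is bound by the type II receptor, which recruits and phosphorylates the type I receptor, and the type I receptor then phosphorylates SMAD2 and SMAD3, with betaglycan and endoglin as co-receptors that present ligand. In the lung this pathway is best known for its part in fibrosis. The 10 genes described here are the ligands Tgfb1, Tgfb2 and Tgfb3, the receptors and co-receptors Tgfbr1, Tgfbr2, Tgfbr3 and Eng, and the latency proteins Ltbp1, Ltbp2 and Ltbp3, taken by symbol from the 23282 genes counted.

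RNA was measured in C22 cells, a clonal mouse club (Clara) cell line from H-2Kb-tsA58 transgenic mice, by QuantSeq 3′ mRNA-seq, in which each read comes from the 3′ end of a polyadenylated transcript. There were 4 groups of 3 libraries. Negative control cells were left without TGF-β1 (NC) or kept for 24 h in 20 ng/ml TGF-β1 (NC + TGF-β1), and cells with siRNA knockdown of Pdcd5 were likewise left without it (siPdcd5) or given it at this dose and time (siPdcd5 + TGF-β1). The cells of all groups carried the temperature-sensitive large T antigen of this line, were differentiated before use, and were serum-starved for 2 h before TGF-β1 was added to the treated ones. The question was how the genes that make, hold and receive TGF-β respond to TGF-β1 itself, and whether Pdcd5 knockdown changes their level or their response. Added TGF-β1 is a protein and is not seen by this assay. No source says that the 3 libraries of a group came from separate cultures, so p-values measure only the spread between these libraries, which may be technical.

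Libraries held 12809857 to 17714828 counts, and 3 counts, taken as the least a library can show, were 0.165 to 0.239 CPM (counts scaled to library size). Pdcd5 itself lay between 65.1 and 73.5 CPM over the 6 NC libraries, treated or not, and between 20.0 and 26.3 CPM over the 6 knockdown libraries. NC + TGF-β1 replicate 2 and siPdcd5 replicate 1 stood apart from the other libraries of their groups, and values without them are given where a result rests on them. Of 5 club cell markers only Scgb3a1 passed 3 counts in a library, Scgb1a1 had at most 1 count, and Scgb3a2 and Cyp2f2 had 0 in every library. Of 8 airway epithelial markers, Krt8, Krt18 and Foxa2 were well counted, whereas Epcam, Nkx2-1 and Sox2 were at 2 counts or fewer. All 6 fibroblast markers passed 3 counts in some library, led by Col1a1 at 1695 to 6542 CPM. Their summed level was 2751 to 2921 CPM in NC, 5968 to 6616 CPM in NC + TGF-β1, 1878 to 2341 CPM in siPdcd5 and 4552 to 4743 CPM in siPdcd5 + TGF-β1. The summed level of the 8 airway epithelial markers was also higher with TGF-β1, at 834 to 880 CPM in NC, 1292 to 1726 CPM in NC + TGF-β1, 760 to 895 CPM in siPdcd5 and 1649 to 1722 CPM in siPdcd5 + TGF-β1. It came mostly from Krt18, at 373 to 1199 CPM, and Krt8, at 171 to 524 CPM. The fibroblast sum came mostly from Col1a1. Its member Dcn was lower with TGF-β1, from a mean of 95.7 to 22.6 CPM in NC cells and from 144 to 41.5 CPM in knockdown cells. Each sum thus follows a few genes rather than its whole list. The part of either sum in the results was not tested. In bulk RNA, fewer cells of a type and less RNA per cell cannot be told apart.

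Promoter windows of 300 bases, 250 before and 50 after the transcription start, were read from RefSeq (GRCm38.p6) for 8 of the 10 genes, 10 windows in all. Tgfb3 and Tgfbr3 had no matched window. The windows of the 3 latency genes, which include the genes that rose with TGF-β1, and of Tgfb2 are shown. Capitals mark matches on either strand to CAGAC (the SMAD box, GTCTG on the other strand), TGACGTCA (the cAMP response element), TGANTCA (an AP-1 site) and TATAAA (the TATA box).
Ltbp1 upstream start, chr17:75005279-75005578, plus strand: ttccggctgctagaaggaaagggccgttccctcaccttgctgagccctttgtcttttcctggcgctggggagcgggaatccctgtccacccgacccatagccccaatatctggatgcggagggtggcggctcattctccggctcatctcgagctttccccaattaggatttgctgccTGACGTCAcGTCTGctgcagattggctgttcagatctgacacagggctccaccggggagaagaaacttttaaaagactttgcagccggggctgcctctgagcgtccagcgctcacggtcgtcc
Ltbp1 downstream start, chr17:75178531-75178830, plus strand: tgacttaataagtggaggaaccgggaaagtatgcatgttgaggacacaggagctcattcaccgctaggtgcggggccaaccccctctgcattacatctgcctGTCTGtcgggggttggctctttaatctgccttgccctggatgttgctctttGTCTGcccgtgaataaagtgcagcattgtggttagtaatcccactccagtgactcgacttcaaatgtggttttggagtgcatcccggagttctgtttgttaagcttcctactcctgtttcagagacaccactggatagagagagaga
Ltbp2, chr12:84876442-84876741, minus strand: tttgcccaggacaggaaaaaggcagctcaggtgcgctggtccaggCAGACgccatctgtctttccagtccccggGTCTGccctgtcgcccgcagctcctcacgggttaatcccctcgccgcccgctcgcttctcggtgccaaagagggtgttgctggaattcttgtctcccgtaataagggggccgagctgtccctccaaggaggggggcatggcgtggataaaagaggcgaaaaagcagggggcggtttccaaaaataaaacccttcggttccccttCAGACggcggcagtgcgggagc
Ltbp3, chr19:5740650-5740949, plus strand: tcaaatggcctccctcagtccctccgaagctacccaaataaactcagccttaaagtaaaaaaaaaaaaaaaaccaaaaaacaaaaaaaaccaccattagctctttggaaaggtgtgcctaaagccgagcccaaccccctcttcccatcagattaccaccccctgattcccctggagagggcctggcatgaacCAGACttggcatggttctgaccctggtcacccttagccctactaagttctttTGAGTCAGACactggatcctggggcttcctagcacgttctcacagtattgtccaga
Tgfb2, chr1:186705940-186706239, minus strand: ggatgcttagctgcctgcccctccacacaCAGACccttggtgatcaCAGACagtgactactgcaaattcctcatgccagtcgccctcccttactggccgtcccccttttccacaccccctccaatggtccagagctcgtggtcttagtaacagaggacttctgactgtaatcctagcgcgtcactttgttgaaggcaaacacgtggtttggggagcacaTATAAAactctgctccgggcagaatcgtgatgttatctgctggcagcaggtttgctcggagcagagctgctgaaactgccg

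A SMAD box was present in 8 of the 10 windows, against 49.6% of all 32851 windows of this length. Counting the first transcribed base as 1 and the base before it as −1, its matches began at −205, −176 and 29 in the Ltbp2 window and at −221 and −204 in the Tgfb2 window. The 8-letter cAMP response element was found in 1 window, at −73 from the upstream Ltbp1 start and next to a SMAD box in reverse orientation, and in 1.79% of all windows. The AP-1 site was found in 1 window, at −6 from the Ltbp3 start, where its last letters are the first letters of a SMAD box, and in 7.81% of all windows. The TATA box was found in 1 window, at −31 from the Tgfb2 start, and in 13.6% of all windows. The windows of Tgfb1 and of the first Tgfbr1 start held none of the 4 motifs. A match describes letters in a window and does not show that a factor was bound.

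Among the ligands, Tgfb3 was the gene that TGF-β1 lowered, in NC and in knockdown cells, while Tgfb2 did not pass the test for any comparison and Tgfb1 was barely counted. The 3 ligands are close relatives that signal through the same receptors. Tgfb3 (chromosome 12 of GRCm38, 86056745 to 86079041, minus strand) had 51.9, 55.9 and 57.4 CPM in NC and 25.9, 33.5 and 25.1 CPM in NC + TGF-β1. In knockdown cells it had 56.2, 47.9 and 49.3 CPM in siPdcd5 and 25.2, 22.9 and 26.6 CPM in siPdcd5 + TGF-β1. All 6 treated libraries thus lay below all 6 untreated ones, and knockdown and NC libraries overlapped with and without treatment. Of all genes tested, 29.6% had no overlap between treated and untreated libraries in NC cells and 36.1% in knockdown cells. The share of genes for all 6 libraries against the other 6 was not counted. The means were 55.1 ± 2.88 and 28.1 ± 4.64 CPM (SD, n = 3) in NC without and with TGF-β1, and 51.2 ± 4.46 and 24.9 ± 1.84 CPM (SD, n = 3) in knockdown cells. The log2 fold change after TGF-β1 was −0.97 (standard error 0.12, adjusted p = 5.6e-05, edgeR quasi-likelihood test adjusted by Benjamini-Hochberg) in NC cells and −1.04 (standard error 0.12, edgeR adjusted p = 3.2e-05) in knockdown cells. The difference between these responses was −0.07 (95% confidence interval −0.43 to 0.30 on the log2 scale, edgeR adjusted p = 0.994). Without NC + TGF-β1 replicate 2, the highest treated library, the response in NC cells was −1.11. Knockdown alone gave −0.11 (edgeR adjusted p = 0.743) without and −0.18 (edgeR adjusted p = 0.585) with TGF-β1.

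The span of Tgfb3 overlaps Ttll5, a gene on the opposite strand, by 5149 bases, but their annotated exons share 0 bases. Ttll5, a tubulin polyglutamylase, had 437 to 589 counts in all 12 libraries, with a log2 fold change of 0.01 (edgeR adjusted p = 0.979) after TGF-β1 in NC cells and 0.01 (edgeR adjusted p = 0.965) in knockdown cells, and 95% confidence intervals from −0.21 to 0.23 for both. Its counts did not fall beside those of Tgfb3.

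**Figure D1:**
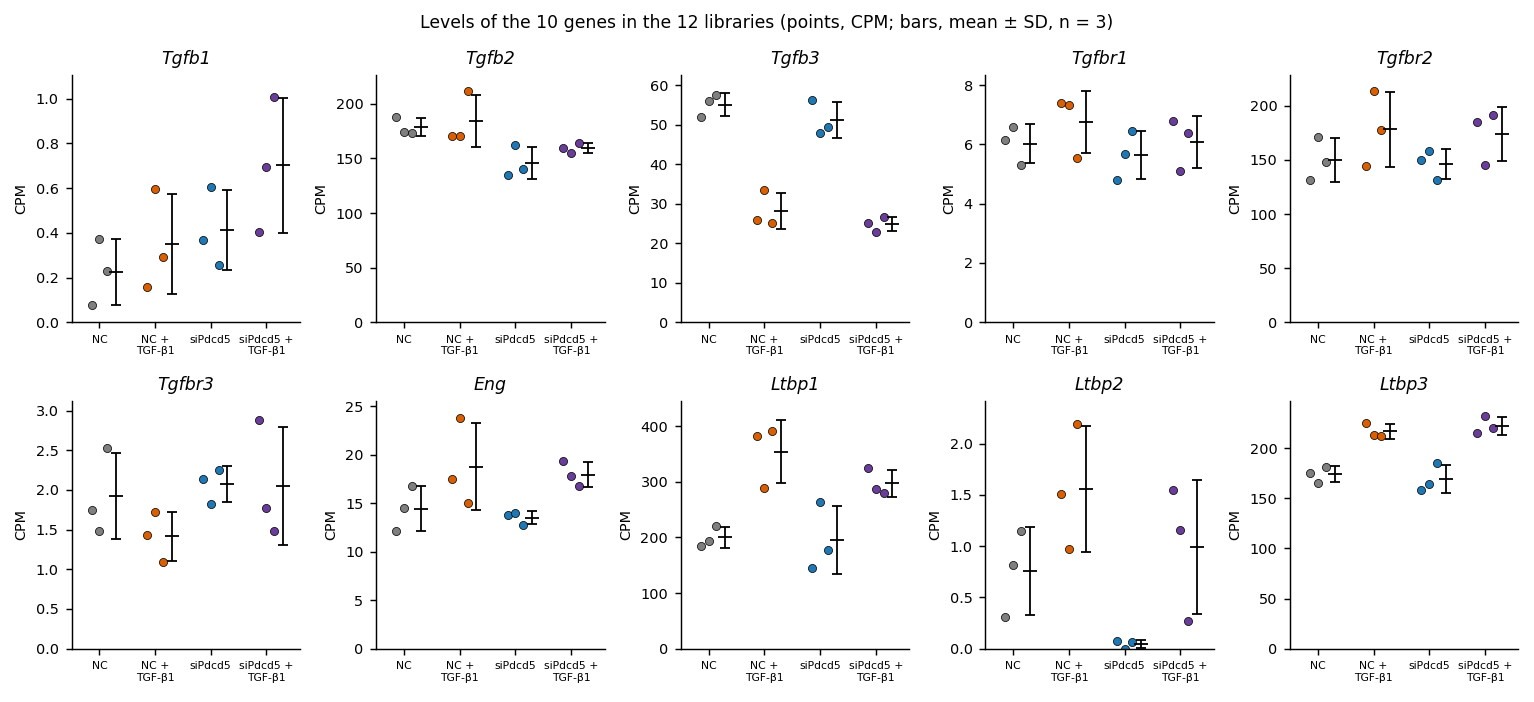
Level of each of the 10 genes in CPM (counts scaled to library size, linear axis from 0) in each of the 12 libraries, with the mean and SD of each group of 3 beside the points. Tgfb3 is low and Ltbp1 and Ltbp3 are high in all 6 libraries given TGF-β1, and Ltbp2 is at 0 to 0.0738 CPM in the 3 siPdcd5 libraries.

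Tgfb2 (chromosome 1, 186622792 to 186705989, minus strand) had 188, 174 and 174 CPM in NC and 170, 171 and 212 CPM in NC + TGF-β1. It had 135, 163 and 140 CPM in siPdcd5 and 159, 155 and 164 CPM in siPdcd5 + TGF-β1. All 6 knockdown libraries were below all 6 NC libraries, while libraries with and without TGF-β1 overlapped in both kinds of cell. The log2 fold change after knockdown was −0.29 (standard error 0.10, edgeR unadjusted p = 0.0131 and adjusted p = 0.164) without TGF-β1. With it the change was −0.21 (standard error 0.10, edgeR unadjusted p = 0.0603 and adjusted p = 0.390), so neither passed the test. Libraries of the groups did not overlap for 23.1% of all genes tested in the former comparison and for 18.9% in the latter. After TGF-β1 the change was 0.05 (95% confidence interval −0.17 to 0.27) in NC cells and 0.13 (95% confidence interval −0.09 to 0.35) in knockdown cells.

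Tgfb1 (chromosome 7, 25687002 to 25705077, plus strand) had 1, 5 and 3 counts in NC, 2, 8 and 4 in NC + TGF-β1, 5, 11 and 4 in siPdcd5, and 6, 9 and 15 in siPdcd5 + TGF-β1. Every pair of neighbouring groups overlapped, and 2 libraries were below 3 counts. The gene did not pass the filter on low counts and was not among the 12425 genes tested. Without that filter its log2 fold changes were 0.60 and 0.74 after TGF-β1 in NC and knockdown cells and 0.84 and 0.99 after knockdown without and with TGF-β1, with edgeR adjusted p values of 0.742, 0.598, 0.766 and 0.711. A change of Tgfb1 RNA was not detectable at this depth.

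The receptors and co-receptors did not pass the test in any comparison. Tgfbr2 (chromosome 9, 116084293 to 116175360), the type II receptor that binds ligand first, had means of 150 ± 20.3, 178 ± 34.7, 147 ± 13.8 and 174 ± 25.1 CPM (SD, n = 3) in the order NC, NC + TGF-β1, siPdcd5 and then siPdcd5 with TGF-β1, and all groups overlapped. Its log2 fold change after TGF-β1 was 0.25 (95% confidence interval −0.07 to 0.57, edgeR adjusted p = 0.311) in NC cells and 0.24 (95% confidence interval −0.07 to 0.56, edgeR adjusted p = 0.303) in knockdown cells. After knockdown it was −0.03 without and −0.04 with TGF-β1, and the intervals reached no further than −0.36 and 0.28.

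Tgfbr1 (chromosome 4, 47353222 to 47414931), the type I receptor kinase, had 65 to 103 counts per library, or 4.80 to 7.40 CPM, with overlap between all groups. Its log2 fold changes lay between −0.15 and 0.17 over the 4 comparisons, with edgeR adjusted p values of 0.644, 0.750, 0.877 and 0.803 for TGF-β1 in NC cells, TGF-β1 in knockdown cells, and knockdown without and with TGF-β1. All 4 intervals lay between −0.55 and 0.57. Tgfbr3 (chromosome 5, 107106570 to 107289629), which encodes betaglycan, had 15 to 43 counts per library, and its intervals were the widest among the receptors, from −1.17 to 0.29 after TGF-β1 in NC cells and from −0.19 to 1.25 after knockdown with TGF-β1.

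Eng (chromosome 2, 32646595 to 32682669, plus strand), which encodes the co-receptor endoglin, had 12.1, 14.5 and 16.7 CPM in NC and 17.5, 23.8 and 15.1 CPM in NC + TGF-β1. It had 13.8, 13.9 and 12.7 CPM in siPdcd5 and 19.3, 17.8 and 16.7 CPM in siPdcd5 + TGF-β1. Treated libraries lay above untreated ones in knockdown cells, where 36.1% of all genes tested had no overlap. In NC cells treated and untreated libraries overlapped. In log2 terms the response was 0.38 (standard error 0.17, edgeR adjusted p = 0.159) in NC cells and 0.41 (standard error 0.17, edgeR adjusted p = 0.113) in knockdown cells, and neither passed the test. In a model of only the 6 knockdown libraries it was 0.42 (edgeR adjusted p = 0.0406), past the threshold. Without NC + TGF-β1 replicate 2, the highest library, the response in NC cells was 0.17. The last 61 bases of Eng overlap an exon of Fpgs, folylpolyglutamate synthase, on the opposite strand, and Fpgs had 120% to 161% of the count of Eng in each library. Over the 12 libraries the log2 CPM of both genes had a Pearson r of 0.892, given as a description. In the same fit the response of Fpgs to TGF-β1 was 0.54 (edgeR adjusted p = 0.105) in NC cells and 0.26 (edgeR adjusted p = 0.449) in knockdown cells. The use of strand in counting is not given in the sources used here, so reads of Eng and Fpgs at this place cannot be told apart.

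The latency proteins held the rises. Ltbp1 rose with TGF-β1 in both kinds of cell, Ltbp2 was at 0 or 1 count in the siPdcd5 libraries and higher after TGF-β1, and the counts at Ltbp3 rose by a smaller amount. Over the 9 genes tested, 3 passed the test after TGF-β1 in NC cells, Ltbp1 and Ltbp3 higher and Tgfb3 lower, against 15.3% of all genes tested (8.57% higher and 6.77% lower). In knockdown cells the same 3 genes passed, against 16.1% of all genes (8.5% higher and 7.61% lower). Ltbp2 was also called there, higher, but it had 1, 0 and 1 counts in siPdcd5 and passed the filter on low counts only through the groups given TGF-β1, so its call is given as a description. The median log2 fold change of the 9 genes was 0.25 in NC cells and 0.24 in knockdown cells, beside 0.005 and −0.03 over all genes tested. After knockdown without TGF-β1, where 3.44% of all genes were called (2.54% lower), the one call was Ltbp2, lower. With only the 6 libraries compared Ltbp2 did not pass the filter, and 0 of the 8 genes tested were called. This call of Ltbp2 is therefore also given as a description. After knockdown with TGF-β1 0 passed, against 1.55%, and 0 of the 9 had an unadjusted p under 0.05 by edgeR, against 13.8%. DESeq2's Wald test also called 0 members in the last comparison.

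Ltbp1 (chromosome 17, 75005568 to 75392512, plus strand), which binds the latent complex and ties it to fibrillin and fibronectin fibres, had 185, 194 and 221 CPM in NC and 383, 289 and 391 CPM in NC + TGF-β1. It had 144, 264 and 177 CPM in siPdcd5 and 325, 287 and 281 CPM in siPdcd5 + TGF-β1. All treated libraries were above all untreated ones, siPdcd5 replicate 2 came closest to the treated libraries, and the siPdcd5 libraries spread widest. Treated and untreated libraries did not overlap for 29.6% of all genes tested in NC cells and 36.1% in knockdown cells. TGF-β1 gave a log2 fold change of 0.82 (standard error 0.18, edgeR adjusted p = 0.00539) in NC cells, a 1.77-fold rise, and 0.60 (standard error 0.18, edgeR adjusted p = 0.0336) in knockdown cells, a 1.52-fold rise. The difference between the responses was −0.22 (95% confidence interval −0.76 to 0.32, edgeR adjusted p = 0.966). In knockdown cells the call was lost without siPdcd5 replicate 1 (0.43), siPdcd5 replicate 3 (0.54) and each of the 3 siPdcd5 + TGF-β1 libraries (0.54, 0.63 and 0.65), whereas in NC cells it held in all 14 alternatives. Knockdown gave −0.03 (95% confidence interval −0.42 to 0.35) without and −0.25 (95% confidence interval −0.64 to 0.13) with TGF-β1.

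Ltbp2 (chromosome 12, 84783212 to 84876532, minus strand), an LTBP that binds fibrillin microfibrils but not latent TGF-β, had few counts. There were 4, 11 and 15 counts in the NC libraries, 19, 13 and 30 in NC + TGF-β1, 1, 0 and 1 in siPdcd5, and 23, 15 and 4 in siPdcd5 + TGF-β1. The 3 siPdcd5 libraries lay below the floor of 3 counts and below the other 9 libraries, among which neighbouring groups overlapped. Of all genes tested, 23.1% had no overlap between siPdcd5 and NC libraries, and 36.1% had none between siPdcd5 and siPdcd5 + TGF-β1 libraries. The share of genes for these 3 libraries against the other 9 was not counted. Summed over libraries, the ratio of siPdcd5 + TGF-β1 to siPdcd5 was 23.2 (95% confidence interval 6.04 to 198) and that of NC to siPdcd5 was 17.9 (95% confidence interval 4.53 to 154), where the exact intervals cover counting error only. The ratio of NC + TGF-β1 to NC was 2.07 (95% confidence interval 1.32 to 3.31). The fit, whose value for such a gene depends on the prior count, called it higher after TGF-β1 in knockdown cells. The log2 fold change was 4.27 (standard error 0.95, edgeR adjusted p = 0.00622), or 2.45 with quantile normalization and limma-trend. The gene was called lower after knockdown without TGF-β1 (−3.90, standard error 1.00, edgeR adjusted p = 0.0475). Both calls are descriptions, since Ltbp2 passed the filter on low counts only through the groups given TGF-β1. After TGF-β1 in NC cells the fit gave 1.04 (standard error 0.58, edgeR adjusted p = 0.276) and after knockdown with TGF-β1 −0.66 (standard error 0.55, edgeR adjusted p = 0.658), and neither passed. The responses in NC and knockdown cells differed by 3.24 (95% confidence interval 0.68 to 5.80, unadjusted p = 0.0168 and adjusted p = 0.949, edgeR), which did not pass among all genes tested. The fall after knockdown was the only call of the 9 genes in that comparison and was lost without any 1 of NC replicates 2 and 3 or the 3 siPdcd5 libraries. An opposite-strand gene at its 5′ end, D030025P21Rik, had 0 to 7 counts.

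**Figure D2:**
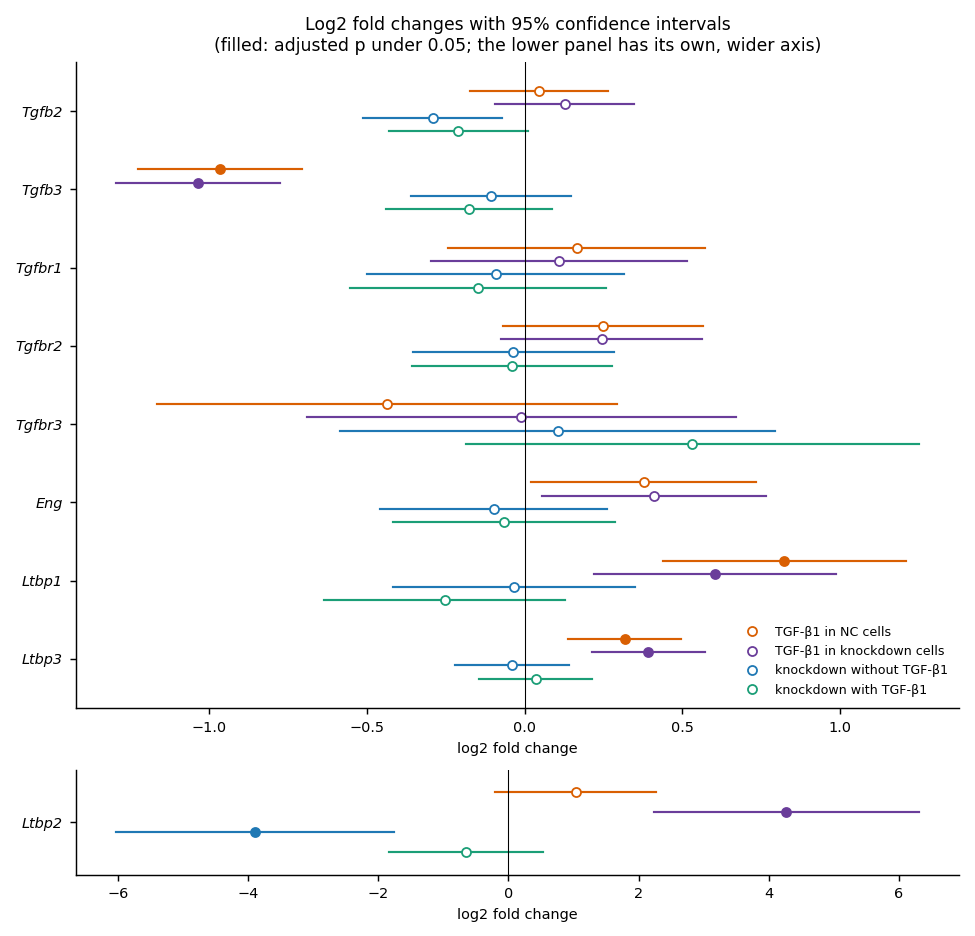
Log2 fold change of each of the 9 genes tested, with its 95% confidence interval, in the 4 comparisons; filled points passed an adjusted p of 0.05 in edgeR, and Ltbp2 has a wider axis of its own. Tgfb3 lies to the left for both TGF-β1 comparisons, Ltbp1 and Ltbp3 lie to the right, and Ltbp2 carries the one filled point for knockdown.

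Ltbp3 (chromosome 19, 5740904 to 5758532, plus strand), which binds latent TGF-β, had 175, 166 and 181 CPM in NC and 225, 213 and 212 CPM in NC + TGF-β1. Its siPdcd5 libraries had 158, 165 and 185 CPM and its siPdcd5 + TGF-β1 libraries 215, 232 and 220 CPM. All 6 treated libraries lay above all 6 untreated ones, beside 29.6% of all genes tested without overlap in NC cells and 36.1% in knockdown cells. Its response was 0.32 on the log2 scale (standard error 0.08, edgeR adjusted p = 0.0173) in NC cells and 0.39 (standard error 0.08, edgeR adjusted p = 0.00454) in knockdown cells, and after knockdown it was −0.04 without and 0.04 with TGF-β1, with all 4 bounds within −0.22 and 0.21. The call in NC cells was lost without a filter on low counts (0.30), with only the 6 libraries compared (0.31), and without NC replicate 1 (0.32), NC replicate 2 (0.28) or NC + TGF-β1 replicate 1 (0.29).

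The use of strand in counting is not given in the sources used here, and the reads counted at Ltbp3 may not all be its own. Leaving Ltbp3 aside, the genes called after TGF-β1 were Ltbp1 and Tgfb3, in NC and in knockdown cells. Of all genes tested, 15.3% were called in NC cells and 16.1% in knockdown cells. The call of Ltbp2 in knockdown cells is a description, since it passed the filter on low counts only through the groups given TGF-β1.

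**Figure D3:**
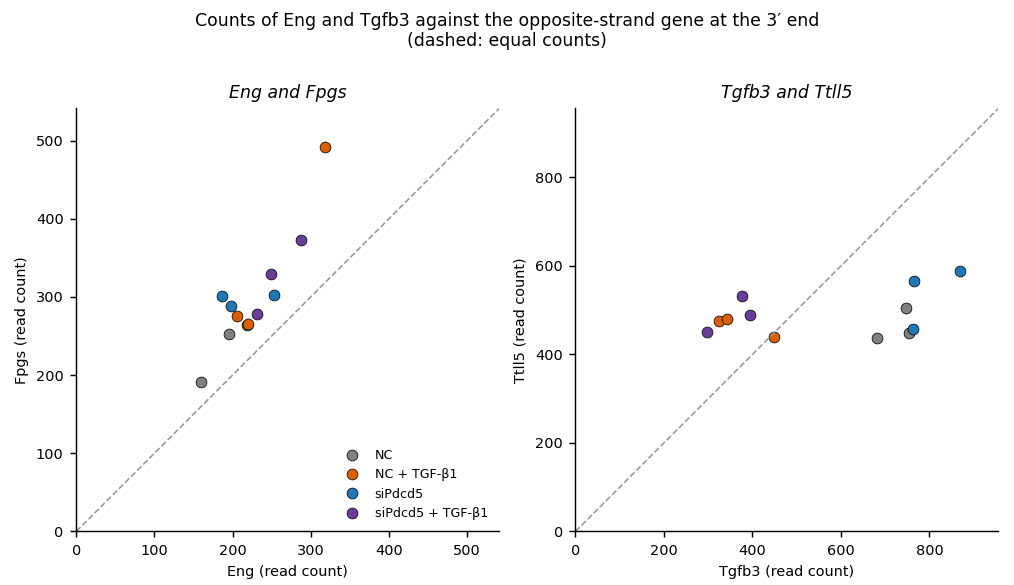
Read count of Eng and Tgfb3 (x axis) against the read count of the opposite-strand gene at the 3′ end of each (y axis) in the 12 libraries, with equal counts on the dashed line. Eng and Fpgs rise together above the line, and Ttll5 stays at 437 to 589 counts while Tgfb3 moves between 297 and 869.

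The difference between the TGF-β1 responses of NC and knockdown cells was called for 0 of the 9 genes and for 0 of all 12425 genes (edgeR), with an unadjusted p under 0.05 for 1 of the 9, Ltbp2, and for 5.13% of all genes. DESeq2's Wald test called 15 of all genes, with 0 of the 9 among them. The intervals of this difference were −0.23 to 0.39 for Tgfb2, −0.45 to 0.45 for Tgfbr2 and −0.18 to 0.33 for Ltbp3 on the log2 scale, so that a moderate difference would not have been seen.

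Other genes of the pathway were taken from 4 lists, whose counts stand beside the 15.3% and 16.1% of all genes called after TGF-β1 in NC and knockdown cells, and the 3.44% and 1.55% called after knockdown without and with TGF-β1. Of 26 partners and activators of latent TGF-β, 20 were tested, and 14 rose and 2 fell after TGF-β1 in NC cells (median log2 fold change 0.75). In knockdown cells 13 rose and 3 fell, with a median of 0.72, and 12 rose and 2 fell in both. Among them was Lrrc32, or GARP, which anchors latent TGF-β on the cell surface. It went from 0.203 CPM, near the floor, to 1.67 CPM in NC cells (log2 fold change 2.99, edgeR adjusted p = 0.00153). Its untreated libraries reached at most 0.307 CPM in NC and 0.331 CPM in siPdcd5. Lrrc32 passed the filter on low counts only through libraries given TGF-β1, so its call is a description. The small leucine-rich proteoglycans Bgn and Aspn, both of which bind TGF-β, rose by 2.35 (edgeR adjusted p = 8.7e-04) and 2.34 (edgeR adjusted p = 6.3e-05) there. In knockdown cells Bgn rose by 2.90 (edgeR adjusted p = 1.1e-04) on the log2 scale. Bgn lay between 0.608 and 0.921 CPM in NC and between 0.295 and 0.937 CPM in siPdcd5. It too passed the filter on low counts only through the groups given TGF-β1, so both its calls are descriptions. In knockdown cells Dcn, a relative of Bgn and Aspn, fell by 1.80 (edgeR adjusted p = 1.9e-08). The plasminogen activator Plat fell by 1.79 (edgeR adjusted p = 0.00764) there. Dcn is also one of the 6 fibroblast markers.

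After knockdown 1 of the 20 tested genes of this list was higher and 4 were lower, both without TGF-β1, where 3.44% of all genes were called, and with it, where 1.55% were. Ltbp4, the remaining LTBP, lay between 16.3 and 16.5 CPM in NC and between 12.5 and 13.6 CPM in NC + TGF-β1. It lay between 7.90 and 9.65 CPM in siPdcd5 and between 6.11 and 7.02 CPM in siPdcd5 + TGF-β1. All 6 knockdown libraries were below all 6 NC libraries, beside 23.1% of all genes tested without overlap after knockdown without TGF-β1 and 18.9% with it. Its log2 fold change after knockdown was −0.89 (standard error 0.13, edgeR adjusted p = 0.00163) without and −0.98 (standard error 0.13, edgeR adjusted p = 0.00145) with TGF-β1. After TGF-β1 it was −0.31 (edgeR adjusted p = 0.115) in NC cells and −0.41 (edgeR adjusted p = 0.0493) in knockdown cells, a sign opposite to that of Ltbp1. After knockdown without TGF-β1 Fmod had a log2 fold change of −1.08 (edgeR adjusted p = 0.00278) and Fbn1, the fibrillin to which LTBPs attach, one of −0.85 (edgeR adjusted p = 0.00293). With TGF-β1 Fmod fell by 0.89 (edgeR adjusted p = 0.0140) and Dcn rose by 0.88 (edgeR adjusted p = 5.4e-04).

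Of 20 tested genes for receptor partners and receptor turnover, 4 rose and 3 fell after TGF-β1 in NC cells and the same 7 did so in knockdown cells, with median log2 fold changes of 0.05 and −0.06. Pmepa1, which holds back SMAD activation, rose by 2.72 (edgeR adjusted p = 3.6e-09) and 2.67 (edgeR adjusted p = 6.1e-09), and Dab2, an endocytic adaptor of the TGF-β receptors, had log2 fold changes of −1.37 (edgeR adjusted p = 5.9e-08) and −1.39 (edgeR adjusted p = 5.3e-08), in NC and knockdown cells. Bmpr2, a type II receptor for bone morphogenetic proteins, rose by 0.73 (edgeR adjusted p = 1.1e-04) in knockdown cells. Cav1, of caveolae in which receptors are taken up and degraded, fell by 0.94 (edgeR adjusted p = 1.3e-04) after TGF-β1 in NC cells. It was also the 1 gene of this list called after knockdown, with log2 fold changes of −0.80 (edgeR adjusted p = 0.00300) without and −0.56 (edgeR adjusted p = 0.0492) with TGF-β1.

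Of 12 tested SMADs and cofactors, 4 rose and 1 fell in NC cells and 3 rose and 1 fell in knockdown cells. Skil, a SMAD repressor, rose by 1.40 (edgeR adjusted p = 1.7e-05) and 1.70 (edgeR adjusted p = 3.4e-06), and the inhibitory Smad6 had log2 fold changes of −1.28 (edgeR adjusted p = 1.3e-05) and −0.56 (edgeR adjusted p = 0.0118), in NC and knockdown cells. Tgif1 rose by 0.81 (edgeR adjusted p = 0.0204) in NC cells, beside a log2 fold change of 0.15 (edgeR adjusted p = 0.703) in knockdown cells. Smad7, the inhibitory SMAD of this pathway, rose by 0.64 (edgeR adjusted p = 0.00118) in NC cells and by 1.26 (edgeR adjusted p = 3.0e-06) in knockdown cells, and neither difference between the responses passed among all genes (edgeR adjusted p = 0.951 for Tgif1 and 0.736 for Smad7). After knockdown without TGF-β1 Smad6 fell by 0.67 (edgeR adjusted p = 0.0122) and Smad7 fell by 0.45 (edgeR adjusted p = 0.0492), and 0 of 12 were called with TGF-β1. Of 13 tested textbook targets, 9 rose and 4 fell, the same genes in NC and in knockdown cells (median log2 fold changes 0.85 and 0.88). Id2 and Id3, which encode inhibitors of helix-loop-helix factors, had log2 fold changes of −4.18 (edgeR adjusted p = 1.9e-09) and −2.99 (edgeR adjusted p = 2.0e-07) in NC cells and of −3.03 (edgeR adjusted p = 2.4e-08) and −2.77 (edgeR adjusted p = 4.4e-07) in knockdown cells. Knockdown lowered 3 of the 13 without TGF-β1, among them Id2 (log2 fold change −0.78, edgeR adjusted p = 0.00777) and Id1 (−0.49, edgeR adjusted p = 0.0259), and 0 with it. Pmepa1, Skil and Smad7 are each in 2 of these lists.

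**Figure D4:**
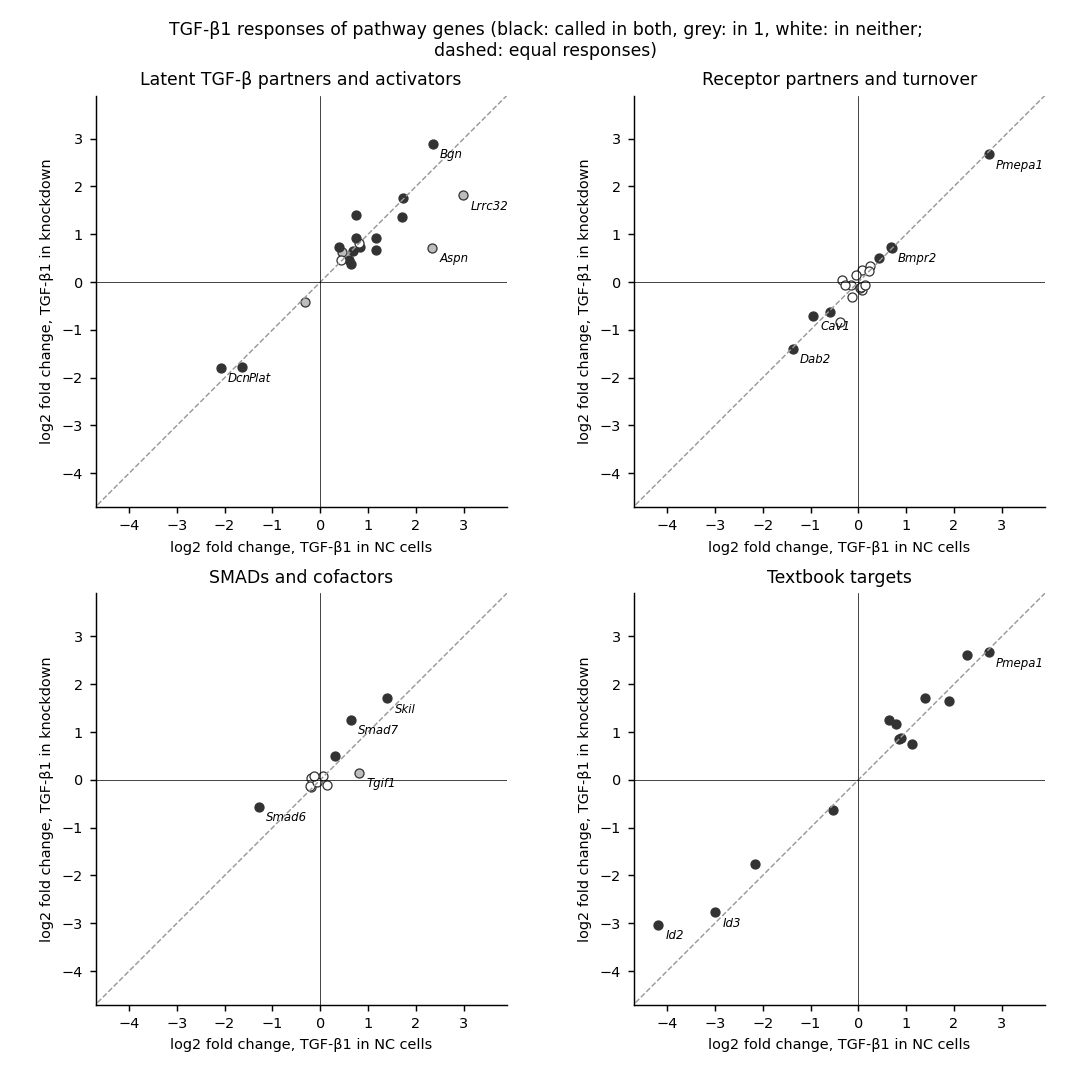
Log2 fold change after TGF-β1 in NC cells (x axis) and in knockdown cells (y axis) for each tested gene of the 4 pathway lists, with equal responses on the dashed line; black points were called by edgeR in both, grey in 1 and white in neither. In each list the called genes lie to the upper right or the lower left of the origin. Lrrc32 and Aspn lie below the line, but the difference between the responses was called for neither (edgeR adjusted p = 0.960 for Lrrc32 and 0.736 for Aspn).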

How the data were processed

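RNA of C22 cells was measured in 12 libraries of 4 groups, assigned from their labels. The authors aligned the reads by Bowtie2 (to mm10, per the submitters' processing notes), took the Bedtools coverage of each gene by both unique and multiple alignments, and deposited the result as raw whole counts for gene symbols. The annotation and the use of strand are not given in the sources used here. Because multiple alignments were counted, genes that overlap or resemble others are uncertain, and 1 gene compared for this reason is not reported here. The quantile normalization that the paper names is not in these counts.

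Counts were analysed with R 4.3.3 and edgeR 4.0.16. Genes were kept by filterByExpr (12425 of 23282), libraries were scaled by TMM, and 1 quasi-likelihood model of the 4 groups was fitted (square root of the common dispersion 0.132). Each comparison was a contrast, with Benjamini-Hochberg adjustment over all genes tested and calls at an adjusted p under 0.05. CPM used TMM-scaled library sizes, with a prior count of 2 for log2 CPM. The 10 genes, the 4 pathway lists and the marker lists (club, airway epithelial, alveolar type 2, ciliated, fibroblast, endothelial and leukocyte) were chosen with earlier results of these data known, so counts over them are descriptions. All 10 genes were named, and in each list and comparison at most the 3 called genes with the largest absolute log2 fold change. Fits were tested on simulated counts. Alternatives used limma 3.58.1 and DESeq2 1.42.0. Totals ranged from 12809857 to 17714828 counts, and the exact intervals of ratios of summed counts and the floor of 3 counts cover counting error only, since reads carried no molecular identifiers. Intervals of log2 fold changes come from the fit and include the spread between libraries. Positions are from GENCODE (GRCm38) and promoters from RefSeq (GRCm38.p6). Same-numbered libraries did not deviate together in all 3 pairs of any comparison, so replicate numbers were not used to pair libraries.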

Additional observations from a re-analysis of the deposited data

How the results depend on the processing

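With TGF-β1 in NC cells 2 to 3 of the genes tested were called over all 14 alternatives, and with TGF-β1 in knockdown cells 3 to 4, also when each library was left out. After knockdown with TGF-β1 and for the difference of the responses 0 were called throughout. The 1 call after knockdown without TGF-β1, Ltbp2, fell to 0 with at least 10 counts in every library and with only the 6 libraries compared, where the gene is not tested, with quantile normalization and limma-trend (log2 fold change −2.12, adjusted p = 0.0529), and in the range of 0 to 1 when each library was left out. Tgfb3 after TGF-β1 kept its call in all 14 alternatives in both kinds of cell, from −1.11 to −0.88 and from −1.08 to −0.96, as did Ltbp1 in NC cells (0.73 to 0.95) and Ltbp3 in knockdown cells (0.33 to 0.46). Ltbp1 in knockdown cells kept it in 8 of 14 and Ltbp3 in NC cells in 9 of 14. Ltbp2 was called after TGF-β1 in knockdown cells in 12 of 12 (2.45 with quantile normalization and limma-trend) and after knockdown in 5 of 12. These 12 leave out alternatives that gave no test of Ltbp2. Its calls are descriptions, since it passed the filter only through the groups given TGF-β1.

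In a model with a replicate block, 3 genes were called after TGF-β1 in NC cells and 3 in knockdown cells, where Ltbp1 was lost (0.62, adjusted p = 0.0562), and 0 after knockdown without TGF-β1 (Ltbp2 −3.89, adjusted p = 0.0929). Under this block the interaction of Tgfbr2 was 0.0083. The correlations of same-numbered libraries passed 0.1 in 2 of 3 pairs for TGF-β1 in NC cells and in 0 of 3 for the other comparisons, so the numbers are not shown to pair libraries.

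Of 668 values for single genes, 604 kept their direction and side of the threshold, 18 lost a call, 1 gained one (Eng) and 45 changed sign, with adjusted p values of 0.675 or more. The interaction of Tgfbr2 turned to 0.0028 with RLE factors and with DESeq2 and to 0.0158 without a filter. With quantile normalization Tgfb2 after TGF-β1 in NC cells turned to −0.0175, Tgfbr3 after TGF-β1 in knockdown cells to 0.0146, Tgfbr2 after knockdown to 0.0040 and the interaction of Tgfbr1 to 0.0057, and with only 6 libraries Tgfbr3 in knockdown cells turned to 1e-04. Leaving out 1 library moved Tgfb2 after TGF-β1 in NC cells between −0.0595 and 0.0986 and Tgfbr3 in knockdown cells between −0.3469 and 0.1824. After knockdown without TGF-β1 the ranges were −0.1961 to 0.0030 for Tgfbr1, −0.1246 to 0.0702 for Tgfbr2, −0.0517 to 0.3453 for Tgfbr3, −0.2117 to 0.0127 for Eng, −0.3147 to 0.1399 for Ltbp1 and −0.1088 to 0.0027 for Ltbp3. With TGF-β1 they were −0.1694 to 0.1113 for Tgfbr2 and −0.2060 to 0.1428 for Eng. For the interaction they were −0.1522 to 0.0767 for Tgfb3, −0.1860 to 0.0552 for Tgfbr1, −0.1341 to 0.1466 for Tgfbr2, −0.1099 to 0.2413 for Eng and −0.3822 to 0.0624 for Ltbp1. The cause of these changes was not tested. Depth limits Tgfb1, Ltbp2 and Tgfbr3, which had at most 15, 30 and 43 counts in a library.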

Other observations

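For the 2 genes tested whose group means ranged most, Ltbp2 and Tgfb3, the genes most like them over the 12 libraries were found among 9122 other genes whose mean log2 CPM was 3 or more, by Pearson correlation of log2 CPM. The correlations are descriptions, since the 12 libraries share 4 treatments. Tgfb3 was closest to Id3 (r = 0.990), Ppm1k (r = 0.988) and Sp8 (r = 0.988). All 3 were lower after TGF-β1 in NC cells, with log2 fold changes of −2.99 for Id3, −1.41 for Ppm1k and −1.18 for Sp8 beside −0.97 for Tgfb3. Id3 had 237 to 256 CPM in NC and 24.8 to 43.1 CPM in NC + TGF-β1, and its knockdown libraries had 172 to 264 CPM without and 25.8 to 33.5 CPM with TGF-β1.

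Ltbp2 was closest to Ddx58 (r = 0.962), Blzf1 (r = 0.920) and Gm4070 (r = 0.906), with Ltbp2 itself at 0 to 30 counts. Ddx58, which encodes the RNA sensor RIG-I, had 74.9 ± 3.07 CPM in NC and 68.6 ± 1.42 CPM in siPdcd5 (SD, n = 3), and was called in none of the 4 comparisons. Gm4070 had 18.6 to 21.4 CPM in NC, 30.3 to 36.6 CPM in NC + TGF-β1, 9.75 ± 1.43 CPM (SD, n = 3) in siPdcd5 and 19.2 to 27.0 CPM in siPdcd5 + TGF-β1. Its log2 fold change after knockdown without TGF-β1 was −1.03 (edgeR adjusted p = 0.00199).

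Apart from the fibroblast markers given above, which were high, the markers of other lung cells were low in all groups except for single genes. The 4 alveolar type 2 markers summed to 0.148 to 0.877 CPM and the 4 endothelial markers to 0.585 to 2.47 CPM. The 4 leukocyte markers summed to 8.29 to 15.2 CPM, most of it from Cd68, at 7.02 CPM or more. Among the 3 ciliated cell markers, Tubb4b had 189 to 328 CPM, while Foxj1 and Dnah5 had at most 5 counts in a library.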
